A study of Mus musculus with 8 samples.

Results

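The change in open chromatin between untreated cells and cells with nuclear Ikaros for 1 h was described from 4 of the 8 ATAC-seq peak lists of the series, the 2 lists labelled 0hr and the 2 labelled 1hr. Peaks of these 4 lists that overlapped were merged into 147033 regions, against 174718 when all 8 lists were merged. Regions present in both lists of one time and neither of the other were taken first, then those present in all 4 were ranked by peak fold, list by list. ATAC-seq uses the Tn5 transposase, which inserts adapters where DNA is free of nucleosomes, so a peak marks a stretch of open DNA. The cells were B3, a mouse pre-B line that came from a lymphoma, and every library, the 0 h ones included, was from B3 transduced with Ikaros-ERt2. In this retroviral construct Ikaros (IKZF1) is fused to ERt2, a part of the estrogen receptor that responds to tamoxifen, and transduced cells were sorted for the green fluorescent protein made from the same transcript. The 0 h cells are labelled as not treated, with no word on the solvent of the drug, and the 1 h cells had 500 nM 4-hydroxytamoxifen (4-OHT), which moves the fusion protein into the nucleus. What 4-OHT or its solvent does by itself and what Ikaros does cannot be told apart here. B3 cells also make other proteins of the Ikaros family, among them IKZF3, so the 0 h state is not one without such proteins.

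Ikaros is a zinc-finger transcription factor needed for lymphocyte development and is often lost or mutated in B-cell leukaemia. Its DNA-binding fingers recognise the core GGGAA, and the protein brings the NuRD complex, which remodels nucleosomes and removes acetyl groups from histones, to its sites. In pre-B cells it is known to repress the surrogate light chain genes Igll1 and Vpreb1, which share a stretch of chromosome 16 and encode partners of the pre-B cell receptor (pre-BCR). It also limits adhesion and cell cycle entry at this stage.

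Sequences of 9 windows, each the 200 bp around the summit of a changed region, are shown first because the results below turn on the short words they hold. They were read from the plus strand of GRCm38.p6. Capitals mark the short words that the study counted as Ikaros motifs, here called core words. These are GGAA (TTCC on the other strand) and GGGA (TCCC on the other strand). Overlapping matches were counted separately, so GGGAA counts as 2 words. The Vpreb1 window at chr16:16869242-16869441 lies beside the start site of that gene and belongs to a region with a peak at 0 h only. The Plekho2 window at chr9:65580201-65580400 is just upstream of Plekho2, and the Itga5 window at chr15:103376948-103377147 belongs to a region 10010 bp from the start site of that integrin gene. Both fell in rank at 1 h. The Gm13024 window at chr4:145367260-145367459 had the highest peak, by the rule used here, among regions with a peak at 0 h only. The Myo6 window at chr9:80217131-80217330 is in an intron of Myo6 beside a start site.
Vpreb1, 0 h only, 9 words: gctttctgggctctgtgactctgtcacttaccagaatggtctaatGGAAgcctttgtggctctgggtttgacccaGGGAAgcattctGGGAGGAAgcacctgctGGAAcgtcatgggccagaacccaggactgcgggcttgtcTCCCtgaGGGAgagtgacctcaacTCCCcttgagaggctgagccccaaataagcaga
Plekho2, lower at 1 h, 12 words: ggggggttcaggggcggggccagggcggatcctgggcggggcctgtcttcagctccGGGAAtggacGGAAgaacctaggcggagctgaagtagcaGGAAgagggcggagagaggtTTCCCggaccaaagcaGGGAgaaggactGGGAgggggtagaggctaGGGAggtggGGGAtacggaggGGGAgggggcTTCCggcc
Itga5, lower at 1 h, 8 words: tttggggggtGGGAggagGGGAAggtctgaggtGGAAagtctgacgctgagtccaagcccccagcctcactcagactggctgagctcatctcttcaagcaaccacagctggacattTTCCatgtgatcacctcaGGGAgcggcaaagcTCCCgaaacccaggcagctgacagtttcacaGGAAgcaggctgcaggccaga
Gm13024, 0 h only, 5 words: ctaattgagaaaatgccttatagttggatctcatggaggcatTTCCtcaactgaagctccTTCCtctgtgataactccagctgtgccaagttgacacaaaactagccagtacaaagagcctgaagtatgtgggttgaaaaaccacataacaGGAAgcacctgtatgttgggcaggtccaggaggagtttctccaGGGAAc
Myo6, lower at 1 h, 9 words: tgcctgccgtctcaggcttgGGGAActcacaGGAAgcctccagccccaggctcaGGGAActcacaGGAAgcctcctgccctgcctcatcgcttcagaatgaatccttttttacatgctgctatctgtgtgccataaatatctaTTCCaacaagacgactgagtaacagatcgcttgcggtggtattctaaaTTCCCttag

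The other 4 windows are from regions that appeared or rose at 1 h and hold fewer of these words. The Gsk3b window at chr16:38118469-38118668 and the Atxn10 window at chr15:85408786-85408985 are intronic and belong to regions with a peak at 1 h only. The Gca window at chr2:62691984-62692183 lies in an exon of Gca, and the Ube2e3 window at chr2:78882122-78882321 in an intron of Ube2e3.
Gsk3b, 1 h only, 1 word: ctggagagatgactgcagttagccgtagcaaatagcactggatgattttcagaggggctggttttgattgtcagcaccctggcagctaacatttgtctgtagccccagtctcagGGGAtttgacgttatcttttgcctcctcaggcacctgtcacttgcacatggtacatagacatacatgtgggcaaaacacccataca
Atxn10, 1 h only, 1 word: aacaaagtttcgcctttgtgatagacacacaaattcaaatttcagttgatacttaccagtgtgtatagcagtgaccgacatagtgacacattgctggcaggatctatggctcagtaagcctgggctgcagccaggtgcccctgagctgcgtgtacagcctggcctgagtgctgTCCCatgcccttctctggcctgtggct
Gca, higher at 1 h, 2 words: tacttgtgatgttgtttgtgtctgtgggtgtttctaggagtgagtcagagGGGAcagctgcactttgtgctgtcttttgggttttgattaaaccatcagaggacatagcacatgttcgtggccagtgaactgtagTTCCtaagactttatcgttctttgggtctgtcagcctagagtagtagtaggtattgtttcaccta
Ube2e3, higher at 1 h, 4 words: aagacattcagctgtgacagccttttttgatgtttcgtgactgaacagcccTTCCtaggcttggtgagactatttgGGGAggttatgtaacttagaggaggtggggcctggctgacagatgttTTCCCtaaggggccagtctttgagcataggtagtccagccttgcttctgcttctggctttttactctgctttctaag

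Of the 147033 regions, 10219 (6.95%) had a peak in both 0 h lists and in neither 1 h list and are called closed below. In the reverse direction 13086 (8.9%) had a peak in both 1 h lists and in neither 0 h list and are called opened. These are 14.6% of the 70041 regions in both 0 h lists and 17% of the 76918 regions in both 1 h lists. Presence or absence in 2 lists against 2 has no test. Which of the 2 counts was larger depended on the lists, since closed outnumbered opened regions with lists cut to equal length (11442 closed, 10314 opened). They also did so without 0 h replicate 2 (21655 closed, 16585 opened), where closed regions needed a peak in only 1 list and opened regions in 2. Most of these peaks were weak: the median closed region held 9 fragments at its summit at 0 h, against 17 for the other regions in both 0 h lists, and the caller accepted peaks with as few as 3 or 4 fragments. Closed regions were also the more frequent among high peaks, where 632 closed (6.18%) and 328 opened regions (2.51%) had over 20 fragments in both libraries that held them. A region without a peak can still hold fragments below the caller's threshold. In a bulk sample, fewer cells with a site open and less opening per cell cannot be told apart.

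A peak in all 4 lists was found in 53278 regions, which were ranked in each list by the fold of fragments at the summit over the local background. In limma on the normal scores of these ranks, 3872 regions (7.27%) were lower and 2218 (4.16%) higher at 1 h, past an adjusted p of 0.05. Their median shift of the mean percentile among the tested regions was -46.6 points for lower and 42.3 points for higher regions. Both 1 h libraries lay outside the range of both 0 h libraries in each called region, as they did, below it, in 15136 and, above it, in 16603 of the 53278 tested. Scores of the 2 replicates correlated at 0.852 at 0 h and 0.867 at 1 h, and scores of different times at 0.628 to 0.648, across regions, which share libraries and depth. The labels do not say that replicates came from separate cultures, so the p-values measure only the spread between these libraries. A rank is relative, and the number of fragments over background rose by a median of 0.131 on the log2 scale over the same regions. The share of lower among the calls depended on the scale, with 63.6% on ranks, 52.8% on the log2 of fragments over background, 55.5% once this was centred and 46.6% on the log2 of the deposited fold.

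The counts changed when a library was left out. For closed and opened regions this drops a condition of the definition. Those counts therefore rise, and they do not measure reliance on a single library. Without 0 h replicate 1 there were 19088 closed and 20294 opened regions, and without 0 h replicate 2 the 21655 and 16585 given above. Opened regions numbered 23191 without 1 h replicate 1 and 29923 without 1 h replicate 2, as fewer lists had to share the peak. Lower regions numbered 2478 without 0 h replicate 2, 2001 without 1 h replicate 1 and 1862 without 1 h replicate 2, and higher regions 571 and 550 without 1 h replicates 1 and 2. Depth, read as the background of fragments per base, was 0.26 to 0.389 for the 0 h libraries and 0.312 to 0.366 for the 1 h ones, with 0 h replicate 2 the shallowest, and the lists held 85903 to 103850 peaks. Start sites of 8 of 10 pre-B markers were under a peak in both 0 h lists and of 7 in both 1 h lists. Pax5 had no peak over an annotated start site in any of the 4, and Vpreb1 had one at 0 h only. Of the markers of other cells, Lck was open in all 4 lists and Lyz2 in the 0 h lists only. The other 5 T cell and 5 myeloid markers, 3 of 4 erythroid markers and the 4 fibroblast markers had no such peak, and the remaining erythroid marker was not in the annotation.

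**Figure D1:**
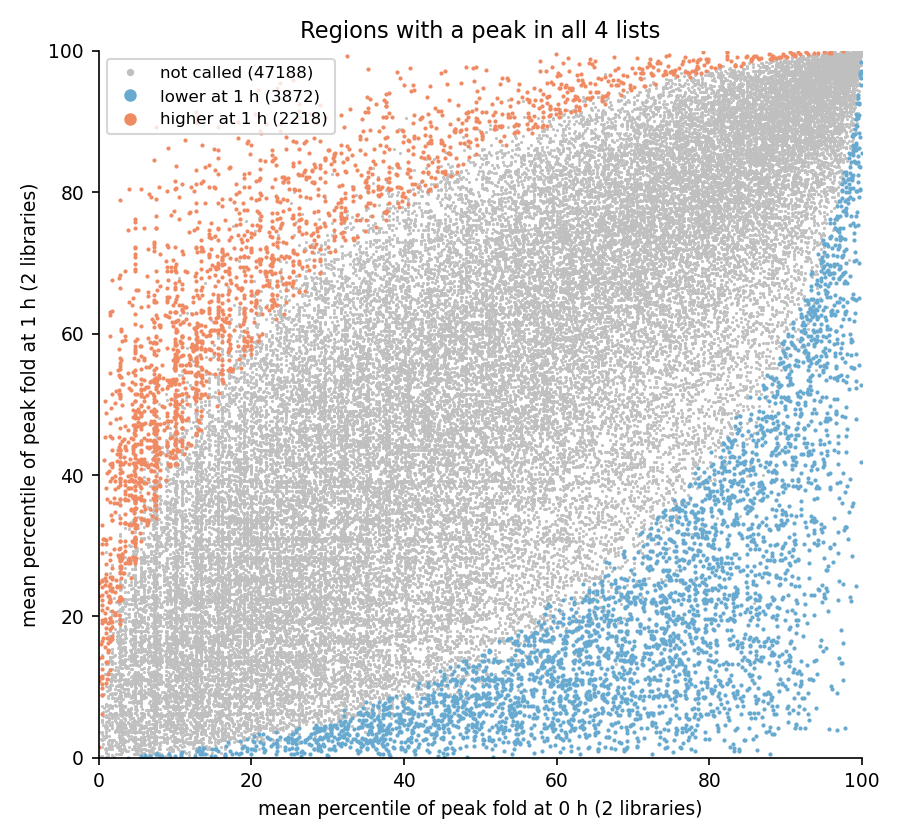
Mean percentile of the peak fold over background of the 53278 tested regions, at 0 h (x axis) and 1 h (y axis), each point 1 region and the mean of 2 libraries. The 3872 lower regions (light blue) lie below the line of equal percentiles and the 2218 higher regions (orange) above it, with the 47188 regions that were not called in grey. Normal scores stretch both ends of the scale, so a call there can rest on a small shift in percentile. An example is a higher region nearest to Sp140, with 85.5 at 0 h and 98.9 at 1 h.

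Among the closed regions with the highest peaks, 3 of the 7 described were intergenic and over 10 kb from a start site. The highest, chr4:145367205-145367699, was intergenic, 23244 bp from the pseudogene Gm13024 and 52058 bp from Tnfrsf8, the gene for the lymphocyte receptor CD30. Its summit held 68 and 49 fragments at 0 h in replicates 1 and 2, the order of all pairs of values below, and neither 1 h list had a peak there. A region 28893 bp from Gm26657 (chr4:56710872-56711177) held 60 and 48 fragments at 0 h. Others lay 1328 bp from Iqcf6 (48 and 36 fragments) and 1546 bp from Gsta2, a glutathione transferase gene (40 and 42 fragments). An intron of Sh3bgrl2, nearest to the lincRNA Gm36120, held 54 and 34 fragments. A region 10732 bp from Ifi203, an interferon-inducible gene, held 71 and 47. Of these 7, only the region over the start site of Zkscan4, a zinc-finger gene (chr13:21478726-21479074), was a promoter region, with 55 and 38 fragments at 0 h. None of the 7 had a peak in a 1 h list. Each had 5 to 8 core words, and each still had a peak in at least 1 list of 30 min, with 5 to 12 fragments. At 2 h the region nearest to Gm36120 had a peak in both lists, with 7 and 7 fragments. Those of Gm26657, Ifi203 and Zkscan4 had one in replicate 1 only, with 4, 5 and 5 fragments. The rest had no peak at 2 h.

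The opened regions with the highest peaks included several introns. The first, in an intron of Atxn10 and nearest to the snRNA gene Gm23517 (chr15:85408831-85408969), had no peak at 0 h and 47 and 51 fragments at 1 h. The second, in an intron of Gsk3b, the gene of a kinase of the Wnt and insulin pathways (chr16:38118485-38118644), had 31 and 31. A region 5678 bp from Mtnr1b, a melatonin receptor gene, had 27 and 25 fragments at 1 h, and one nearest to the pseudogene Gm13870 and, among coding genes, to the kinase gene Hipk3 had 29 and 26. Near Slc16a1, a lactate transporter gene, a region 7705 bp from the start site had 29 and 45. Introns of Rtf1, an elongation factor gene, and Sppl2a, a membrane protease gene with a role in B cells, held 23 and 22 and 25 and 31 fragments. The 8 regions were completed by one on chromosome 18 nearest to Gm22819, with 26 and 25. All 8 were distal, with 1 to 4 core words, and all 8 had a peak in both lists of 30 min and of 2 h, which the choice did not use.

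**Figure D2:**
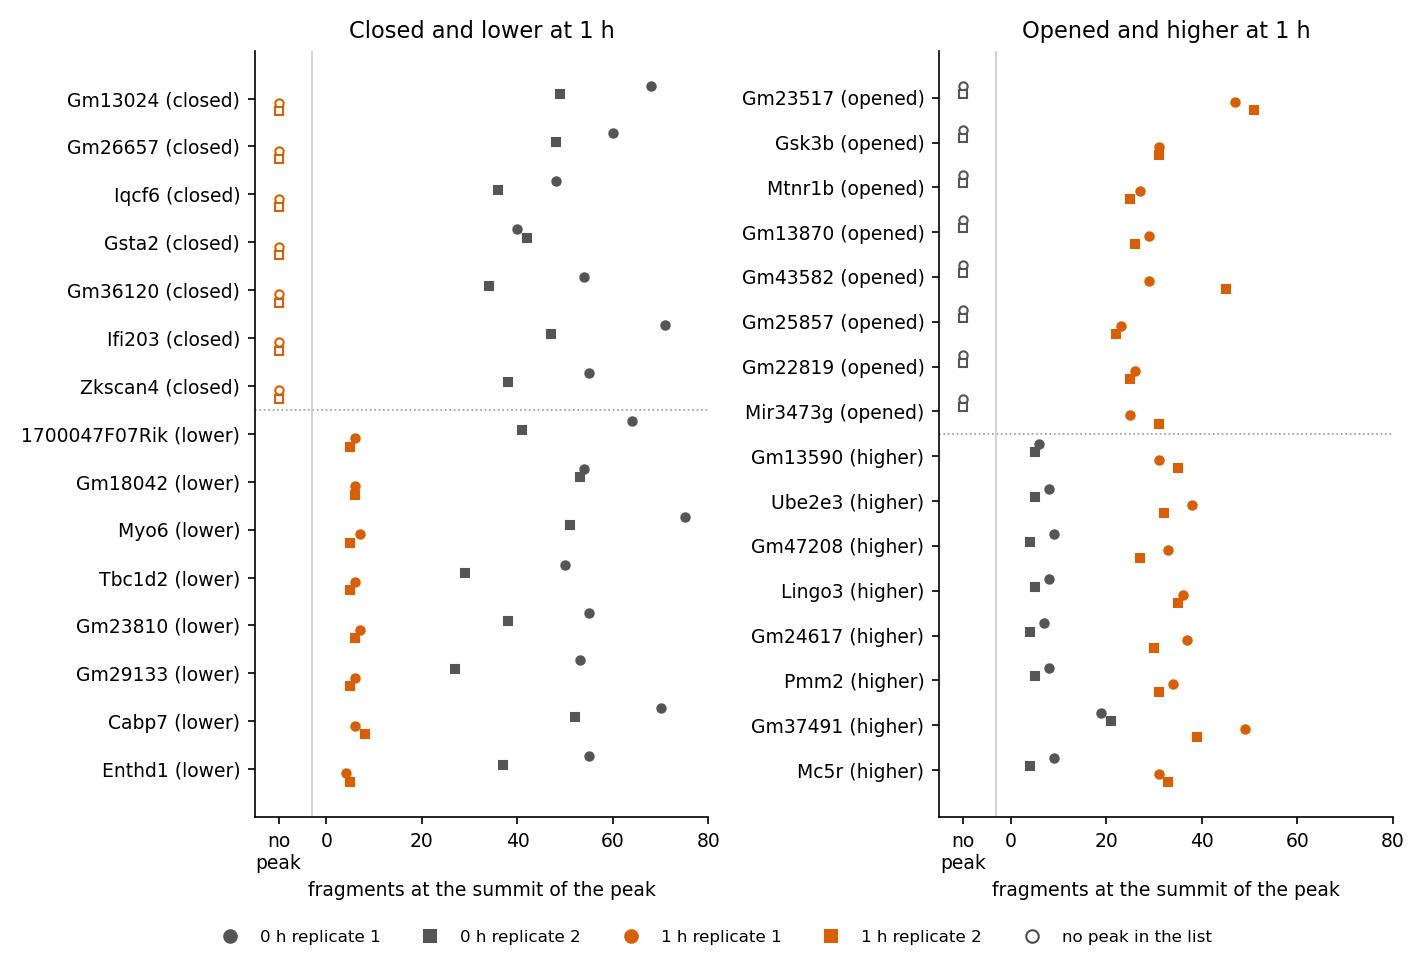
Fragments at the summit in each of the 4 libraries (x axis) for the 8 regions with the highest peaks or largest shifts in each class (7 for closed), labelled by nearest gene (y axis). Grey is 0 h and orange 1 h, circles are replicate 1 and squares replicate 2, and open symbols mark a list with no peak, which is not a count of 0. In the lower class the 1 h libraries held 4 to 8 fragments where the 0 h libraries held 27 to 75.

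Among regions open in all 4 lists, the largest fall in rank was at the start site of the lincRNA 1700047F07Rik (chr4:107706982-107707163), with 64 and 41 fragments in the untreated and 6 and 5 in the 1 h libraries. Its percentile among the tested regions was 97.8 ± 2.42 at 0 h and 4.16 ± 1.64 at 1 h (mean ± SD, n = 2), a difference in normal scores of -3.91 with a standard error of 0.34 (limma, adjusted p = 0.00891). An intron of Ccdc138, nearest to the pseudogene Gm18042, fell from 54 and 53 fragments to 6 and 6. In an intron of Myo6, 154 bp from a start site of this myosin gene (chr9:80217095-80217457), 75 and 51 fragments at 0 h became 7 and 5 at 1 h, and the percentile went from 95.7 ± 1.02 to 4.12 ± 3.63 (n = 2, limma, adjusted p = 0.00891). Introns of Tbc1d2, a gene for a regulator of Rab proteins (50 and 29 fragments, then 6 and 5), of Nf2, nearest to the start site of Cabp7 (70 and 52, then 6 and 8), and of Enthd1 (55 and 37, then 4 and 5) fell as well. The other 2 of the 8, nearest to Gm23810 and Gm29133, were intergenic, 77373 and 87423 bp from a start site. All 8 had an adjusted p of 0.00891 and 6 to 9 core words, and in each of them both 1 h libraries lay below both 0 h libraries. Ranked by −log10 p or among all peaks of a list, and without each library in turn, their adjusted p was 0.00731 to 0.0357. A fit without a library takes the spread from the pair of the other time and assumes that the lone library varies like it.

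The largest rise in rank was in an exon of Gca, which encodes a calcium-binding protein, nearest to the pseudogene Gm13590 (chr2:62691900-62692165). It held 6 and 5 fragments in the untreated and 31 and 35 in the 1 h libraries, and its percentile was 7.46 ± 1.48 at 0 h and 89.2 ± 3.51 at 1 h (n = 2, difference in scores 2.7 with a standard error of 0.28, limma, adjusted p = 0.00891). An intron of Ube2e3, a ubiquitin-conjugating enzyme gene (chr2:78882109-78882370), went from 8 and 5 fragments to 38 and 32. An intron of Pmm2, the phosphomannomutase gene of protein glycosylation, went from 8 and 5 to 34 and 31, and a region 4572 bp from Lingo3 from 8 and 5 to 36 and 35. An intron of Efcab11, nearest to Gm47208, went from 9 and 4 to 33 and 27. The remaining 3 were intergenic or intronic near Gm37491, with 19 and 21 fragments in the untreated and 49 and 39 in the 1 h libraries, and, on chromosome 18, near Gm24617 and Mc5r, a melanocortin receptor gene. In these 8 regions both 1 h libraries stood above both 0 h libraries, with adjusted p from 0.00891 to 0.0127 and 1 to 5 core words, and under the same 6 alternatives the adjusted p was at most 0.0419.

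Each region was assigned to the gene with the nearest start site, which need not be the gene it acts on. Of 36917 genes nearest to at least 1 region, 9867 were nearest to a closed or lower region and 11117 to an opened or higher one. Genes nearest to both kinds numbered 4134, and whether this differs from what the 2 gene counts alone would give was not tested. The 14091 closed or lower regions are 9.58% of all regions, and the 15304 opened or higher ones 10.4%. Genes with many regions have more of each kind, so shares are given with the counts. The gene with the most closed or lower regions was the lincRNA 9430078K24Rik, most often with the RNA-binding protein gene Zfp36l1 as nearest coding gene. Of its 51 regions on chromosome 12, 13 were closed or lower (25.5%, 8 closed and 5 lower), against 4 opened and 0 higher. Pde4d, a cAMP phosphodiesterase gene that spans a large interval, had 12 of 162, at 7.41% a smaller share than over all regions, and 24 of 162 opened or higher (14.8%), of which 23 were opened. Gm37491 on chromosome 1, with Lyplal1 as its nearest coding gene, had 11 of 21 regions closed or lower (52.4%), and 1 opened and 1 higher. The miRNA gene Mir21c, annotated near Nrp1, had 10 of 34 (29.4%), and Sgms1, a sphingomyelin synthase gene, 10 of 46 (21.7%) with 8 of 46 (17.4%) in the other direction. On the opened side, Foxp1, a forkhead factor of early B cells, had 10 of 59 regions (16.9%), with 7 closed or lower, and Gm20705, a transcript within Foxp1, had 9 of 31 (29%), with 3 closed or lower. Edil3, a secreted adhesion protein gene, had 10 of 36 regions opened or higher (27.8%) and 2 lower. Sept9, a septin gene, had 9 of 55 in each direction (16.4%).

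A set of 9 lists of genes of B cell biology was followed through regions within 20 kb of a start site. Near a start site of any protein-coding gene, 6.26% of regions were closed and 8.37% opened, and of the tested ones 6.44% were lower and 3.42% higher. Near 19 genes described as repressed by Ikaros in the study, 18 of 183 regions were closed (9.84%) and 6 opened (3.28%), and of 86 tested 7 were lower (8.14%) and 5 higher (5.81%). The median difference in scores was -0.08, against 0.06 over all tested regions. The study called these genes repressed on RNA of the same cell system. It also names some of them for loss of histone acetylation, or shows ATAC-seq tracks of their loci, in that system. Their list is thus not independent of the direction seen here, in RNA or in open chromatin. Igll1 and Vpreb1 share the same 12 regions. The share of lower regions is near that of all tested regions.

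The surrogate light chain locus on chromosome 16 had 3 closed regions and 1 higher. The region over the Vpreb1 start site, whose sequence is shown above (chr16:16869207-16869487), held 79 and 43 fragments at 0 h, 20 and 17 at 30 min and had no peak in the lists of 1 h or 2 h. The other 2 closed regions lay 1832 bp from Vpreb1, in an intron of Top3b (22 and 16 fragments), and 5651 bp from Igll1 (12 and 17). At the start site of Igll1 (chr16:16863808-16864384) a peak stayed in all 4 lists, with 122 and 94 fragments in the untreated and 35 and 22 in the 1 h libraries. Its percentile among tested regions was 70.6 at 0 h and 37.8 at 1 h (limma, adjusted p = 0.101). The higher region, 8842 bp from Igll1, had 41 and 38 fragments in the untreated and 52 and 49 in the 1 h libraries (adjusted p = 0.0486), and its call was lost in each of the 6 alternatives, with adjusted p from 0.0568 to 0.153.

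Plekho2, which encodes a membrane-associated regulator of cell survival, had 3 lower regions, 1 higher and none closed. The region 178 bp from its start site, with 12 core words (chr9:65580218-65580356), held 37 and 33 fragments in the untreated and 13 and 11 in the 1 h libraries, and its percentile went from 30.1 to 0.232 (limma, adjusted p = 0.00966). A region 827 bp inside the gene went from 65 and 45 fragments to 21 and 13 (adjusted p = 0.0138, and 0.0553 when ranked among all peaks). Deeper in the gene, in an intron, a region went from 56 and 53 to 13 and 17 (adjusted p = 0.0267, and 0.1 at the highest when ranked otherwise or without a library), while its neighbour 4997 bp from the start site went from 15 and 15 to 40 and 27 (adjusted p = 0.0172, and 0.0569 without 1 h replicate 1). Itga5, the fibronectin receptor chain, had 3 closed and 2 lower regions among 16 and none in the other direction. The strongest closed one, 15056 bp from the start site, held 45 and 27 fragments at 0 h, and the lower region shown above went from 68 and 46 to 10 and 13 (adjusted p = 0.0215, and 0.0807 at the highest, without 1 h replicate 1 or ranked among all peaks). In Ramp1, a receptor activity-modifying protein gene, an intronic region went from 35 and 21 to 7 and 9 (adjusted p = 0.0133).

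Others of the repressed genes had mixed changes or none. Endod1 had a closed region 369 bp from its start site, with 41 and 36 fragments at 0 h and 11 core words, and in an intron a higher region (25 and 21 fragments, then 36 and 43, adjusted p = 0.0115). Beside it a region was lower (112 and 82 fragments, then 29 and 21, adjusted p = 0.0295), a call lost in 5 of the 6 alternatives, and a second higher region 10685 bp from the start site (5 and 6, then 16 and 19, adjusted p = 0.0261) was lost in 4. Lrrfip1 had 3 closed regions, 1 opened and 1 higher. Myc, the growth regulator, had 2 weak closed regions, 849 bp and 3808 bp from start sites, with 24 and 12 and 10 and 13 fragments at 0 h. Hs3st2 and Hs3st3b1, which modify heparan sulphate, had 1 closed region each. Ccnd1 and Ccnd2, cyclins of the G1 phase, had no closed, opened, lower or higher region among 9 and 8, and Espnl none among 4.

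For the pre-BCR and its signalling (12 genes), 9 of 138 regions were closed (6.52%) and 16 opened (11.6%), and of 73 tested 6 were lower (8.22%) and 4 higher (5.48%). The median difference in scores was -0.08. At Syk, the kinase that binds the receptor's tails, 4 of 20 regions were opened, 1 closed and 1 higher. An opened one 365 bp from a start site held 17 and 17 fragments at 1 h. Pik3cd, a PI3 kinase chain, had a closed region over a start site (chr4:149698623-149698777, 56 and 32 fragments at 0 h) next to an opened one (chr4:149698786-149698938, 26 and 20 fragments at 1 h), and 3 more opened, 1 lower and 1 higher region. Vpreb3 had 2 opened regions, 1 of them 141 bp from its start site, with 33 and 25 fragments at 1 h. At Cd79b, a signalling chain of the receptor, 2 regions were lower, of which 1 that lies 4050 bp away in Scn4a went from 58 and 42 fragments to 13 and 8 (adjusted p = 0.0102), while the region over its start site held 68 and 56 at 0 h and 57 and 50 at 1 h (adjusted p = 0.81). In Lyn, a Src-family kinase gene, an intronic region went from 63 and 52 to 20 and 14 (adjusted p = 0.0139, and 0.053 without 1 h replicate 2), and 1 region was opened and 1 higher.

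Of 198 regions near 18 transcription factor genes of the B lineage, 14 were closed (7.07%) and 20 opened (10.1%), and of 87 tested 8 were lower (9.2%) and 5 higher (5.75%), with a median difference in scores of -0.11. Pax5, the factor that commits cells to the B lineage, had 4 closed, 2 lower and 1 opened among 18 regions. Its strongest closed region, in an intron (chr4:44702320-44702525), held 47 and 31 fragments at 0 h, and a lower one 17152 bp from a start site went from 33 and 36 to 10 and 6 (adjusted p = 0.0132, and 0.0524 when ranked among all peaks). Ikzf1 itself had 2 closed regions 2600 and 9600 bp from start sites, with 35 and 25 and 40 and 28 fragments at 0 h, and 1 opened. Near Ikzf3 a region in Zpbp2 went from 34 and 27 to 11 and 11 (adjusted p = 0.0114), with 1 opened region next to it. Irf8 had 3 opened regions, 1 closed and 1 that went from 66 and 60 to 21 and 17 (adjusted p = 0.0142). Bach2, a repressor of late B cell genes, had 2 opened regions and 1 that went from 5 and 6 fragments to 34 and 23 (adjusted p = 0.0121). Spi1 had 3 opened regions among 10 and none of the other 3 kinds, and Ebf1 1 opened region among 13. Tcf3, which encodes E-proteins, had 1 opened and 2 higher regions with adjusted p of 0.0496 and 0.0485, the first lost in each of the 6 alternatives and the second in 5 of them.

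Genes of the IL-7 receptor, STAT5 and its feedback (12 genes) had the largest share of closed regions among the lists, 15 of 128 (11.7%), with 10 opened (7.81%), and of 51 tested 6 were lower (11.8%) and 3 higher (5.88%). The median difference in scores was 0.04. Socs genes encode inhibitors of cytokine signalling. At Socs2 a region 11 bp from the start site with 12 core words was closed (32 and 26 fragments at 0 h), with 1 opened and 1 lower region farther away. Near Socs1 a region went from 61 and 47 to 12 and 15 (adjusted p = 0.0103), and near Socs3 one went from 37 and 20 to 8 and 7 (adjusted p = 0.00891), with 2 closed, 1 opened and 1 more lower. Stat5a and Stat5b, which lie side by side and share regions, had 4 closed, 2 opened, 1 lower and 2 higher regions between them. Jak1 had in its introns a lower region (59 and 50 fragments, then 24 and 25, adjusted p = 0.0162, and 0.0611 without 1 h replicate 1) and, beside it, a higher one (14 and 10, then 38 and 33, adjusted p = 0.0096), and 1 closed and 1 opened region.

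Near 14 genes of adhesion and migration, 14 of 129 regions were closed (10.9%) and 11 opened (8.53%), and of 55 tested 6 were lower (10.9%) and 4 higher (7.27%), with a median difference in scores of 0.17, on the higher side of all regions. Itgal, a chain of the integrin LFA-1, had 3 closed regions, 2 of them upstream with 42 and 29 and 36 and 29 fragments at 0 h, 1 lower and 1 opened. S1pr1, a receptor for egress from tissue, had 2 opened and 2 higher regions and none lower or closed. For the G1 cell cycle (13 genes), 11 of 136 regions were closed (8.09%) and 10 opened (7.35%), and of 65 tested 6 were lower (9.23%) and 2 higher (3.08%), with a median of -0.11. Ccnd3, the D cyclin that pre-B cells depend on, had 3 closed and 3 lower regions among 25, of which 12 were tested, and none in the other direction. In introns, 2 of its lower regions went from 80 and 57 fragments to 24 and 25 (adjusted p = 0.0115) and from 84 and 44 to 19 and 18 (adjusted p = 0.0117). E2f1 had 3 opened regions among 10. Near Cdkn1a, the p21 gene, 2 regions were closed and 2 lower, both lower calls being lost in 5 of the 6 alternatives, 1 was opened, and 1 in Trp53cor1 went from 10 and 6 to 39 and 33 (adjusted p = 0.00891).

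The sterol and housekeeping lists had smaller shares of closed and lower regions than all protein-coding genes, and the NuRD list had shares near theirs. Sterol synthesis (10 genes) had 2 closed of 84 (2.38%), 6 opened (7.14%), and of 35 tested 1 lower (2.86%) and 3 higher (8.57%), with a median of -0.05. The NuRD subunits (13 genes) had 6 closed of 105 (5.71%), 9 opened (8.57%), and of 45 tested 3 lower (6.67%) and 4 higher (8.89%), with a median of 0.03. The 8 housekeeping genes had 3 closed of 73 (4.11%), 9 opened (12.3%), and of 33 tested 1 lower (3.03%) and 0 higher, with a median of -0.07. That lower region lay 25 bp from the start site of Gapdh, with 37 and 25 fragments in the untreated and 15 and 15 in the 1 h libraries (adjusted p = 0.011). Without the shallowest library, 0 h replicate 2, the closed regions near the lists of repressed genes, pre-BCR, transcription factors, IL-7, cell cycle, adhesion, sterol, NuRD and housekeeping genes numbered 35, 15, 27, 25, 18, 22, 5, 11 and 8, with 21423 over all regions, a count over the regions merged from all 4 lists where the 21655 above comes from merging the remaining 3, and the lower ones 4, 5, 3, 4, 6, 2, 0, 3 and 1.

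**Figure D3:**
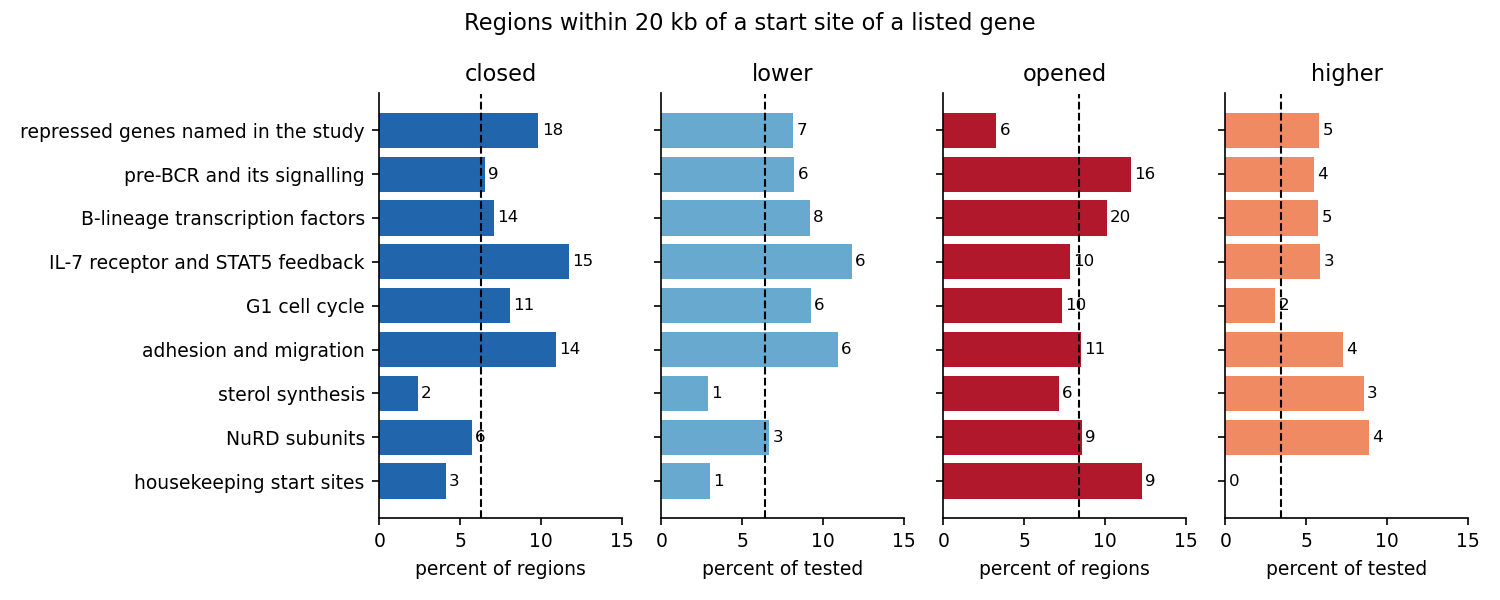
Share of regions within 20 kb of a start site of a listed gene that were closed or opened (percent of all such regions) and lower or higher (percent of tested), with the number of regions beside each bar and the share near any protein-coding gene as a dashed line. For closed regions 6 of the 9 lists lie right of the dashed line (6.26%), from the pre-BCR list at 6.52% to the IL-7 list at 11.7%. For opened regions the repressed genes (3.28%), sterol (7.14%), G1 (7.35%) and IL-7 (7.81%) lists lie left of it (8.37%).

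Changed regions lay away from promoters. A start site within 1 kb marked 12.8% of closed regions, against 25% of all regions in both 0 h lists, and 12.9% of opened regions, against 24.4% of those in both 1 h lists. It marked 19.8% of lower and 13.5% of higher regions, against 28.5% of all tested. Among distal regions in both 0 h lists 17% were closed (8911 of 52516), and among promoter regions 7.46% (1308 of 17525). For opened regions the shares were 19.6% distal and 9.01% at promoters of those in both 1 h lists, for lower 8.15% and 5.05% of the tested, and for higher 5.03% and 1.98%. Introns held 51.6% of closed and 53.2% of opened regions, against 45.6% and 46.4% of the regions in both lists of 0 h and of 1 h. Closed regions had a median percentile among all peaks of a list of 36.3, against 63.9 for the other regions in both 0 h lists, and the part of peak height in these shares was not tested. An opened or higher region lay within 1 kb of 6.64% of closed or lower regions and of 5.91% of the other regions in both 0 h lists, and a closed or lower region within 1 kb of 6.1% of opened or higher regions and of 6.82% of the other regions in both 1 h lists.

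Closed and lower regions held more of the core words, and opened and higher regions fewer, than regions that did not change. The 200 bp around the summit held 6.19 ± 2.51 words in closed and 6.12 ± 2.31 in lower regions (mean ± SD over regions), 3.01 ± 1.94 in opened and 3.07 ± 1.88 in higher regions, and 4.3 ± 2.31 in tested regions that were not called. These words are common, and 97.1% of all regions had at least 1, so a word is not particular to an Ikaros site. Closed or lower regions had 1.8 more words than the other regions in both 0 h lists. For the longer GGGAA and TTCCC only, the difference was 0.315. The share of regions in both 0 h lists that were closed went from 2.02% with no word and 4.22% with 1 or 2 words to 24.5% with 7 or 8 and 39.1% (553 of 1416) with 11 or more. The share of regions in both 1 h lists that were opened went the other way, from 35.9% with no word to 4.11% (31 of 755) with 11 or more. By rank, 0.178% of tested regions with no word were lower and 11.8% higher, against 21.3% and 0.452% with 11 or more. The same order was seen within promoters, where 2.3% of regions with 0 to 2 words and 16.6% with 9 or more were closed, and in distal regions, with 4.46% and 40.7%. In regions of 45% to 50% GC, closed or lower regions had 5.81 ± 2.25 words (4057 regions) and the other regions in both 0 h lists 4.01 ± 2.12 (13632 regions), and each of the other 5 bands of GC content showed a difference in the same direction. Regions are not replicates and share libraries, so these are descriptions with no p.

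**Figure D4:**
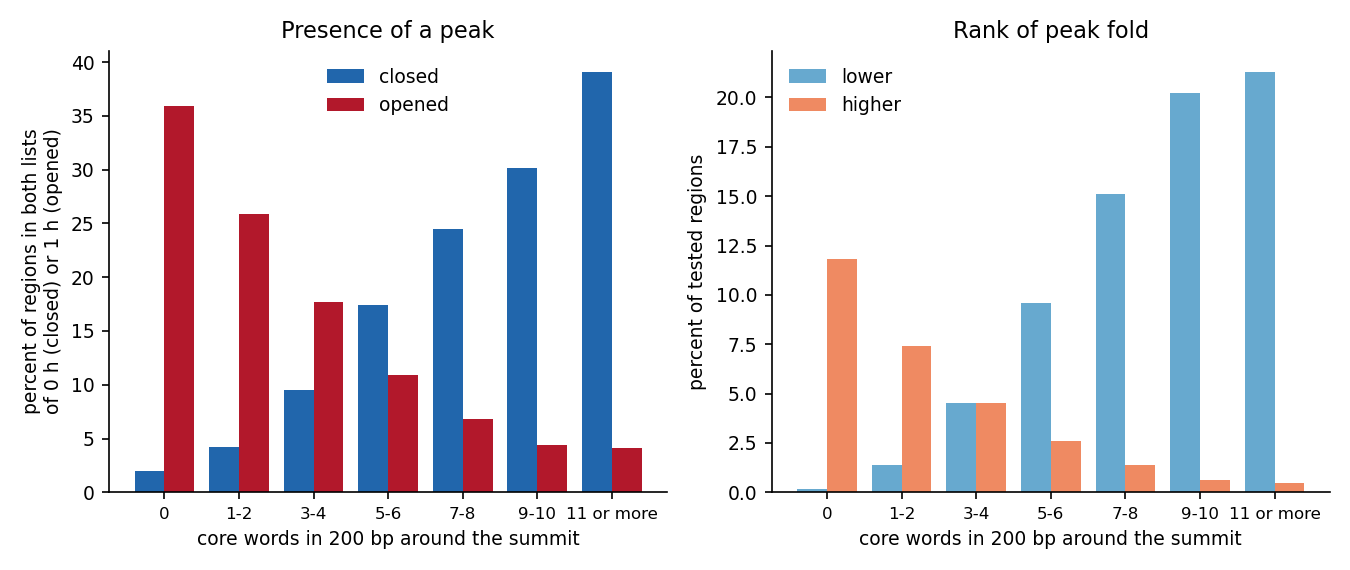
Share of regions closed (of those in both 0 h lists) or opened (of those in both 1 h lists), left, and lower or higher (of tested regions), right, by the number of core words in the 200 bp around the summit (x axis). Bars start at 0. Closed rises from 2.02% to 39.1% and opened falls from 35.9% to 4.11%, and lower and higher cross at 3 or 4 words, both at 4.54%.

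Other words differed less. The E-box CANNTG, the site of E-proteins, which reads the same on both strands, occurred 1.62 ± 1.46 times in 200 bp of opened and 1.5 ± 1.25 times in higher regions, against 1.27 ± 1.13 in closed, 1.27 ± 1.14 in lower and 1.34 ± 1.22 in all regions, and at least 1 was found in 72.0% of all regions and 77.2% of opened ones. The forkhead word TGTTTA or TAAACA was in 13.6% of opened and 12.3% of higher regions, 8.58% of closed and 7.54% of lower regions, and 10.4% of all. The runt word TGTGGT or ACCACA was more frequent in the 4 classes, at 30.0% of closed, 28.2% of opened, 31.6% of lower and 32.5% of higher regions against 25.6% of all. The word CACCC or GGGTG of KLF factors was in 39.4% of closed and 46.1% of opened regions and 42.9% of all. A match is not a bound site, and binding was not measured in these lists.

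The lists of 30 min and 2 h played no part in the choice of regions. Of the closed regions 61.5% had no peak in either list of 30 min and 82.4% in either of 2 h, against 2.24% and 5.36% of the other regions in both 0 h lists. A peak in both lists was present in 14.1% of closed regions at 30 min and 3.88% at 2 h. Of the opened regions 35.6% had a peak in both lists of 30 min and 65.2% in both of 2 h, while 29.3% and 11% had none. Of the other regions in both 1 h lists, 90.5% and 90.2% had a peak in both, and 1.94% and 2.4% had none. Closed and opened regions had weaker peaks than those they are set beside, with median percentiles of 36.3 against 63.9 and 32.4 against 65.5, and the part of this in the shares was not tested. The lower regions had a median percentile among all peaks of a list of 84.4 ± 0.862 at 0 h and 40.7 ± 4.73 at 1 h, the times that chose them, and of 60.5 ± 3.41 at 30 min and 37.0 ± 1.68 at 2 h (mean ± SD of the medians of 2 libraries). The higher regions had 35.9 ± 3.98 and 81.3 ± 1.45 at 0 h and 1 h, and 70.0 ± 2.88 at 30 min and 82.1 ± 0.397 at 2 h. In both classes the 2 libraries of 30 min lay between those of 0 h and 1 h, and those of 2 h were beside those of 1 h. Tested regions that were not called stayed between 67.1 and 73.0 on this scale, in which a region without a peak counts as 0.

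**Figure D5:**
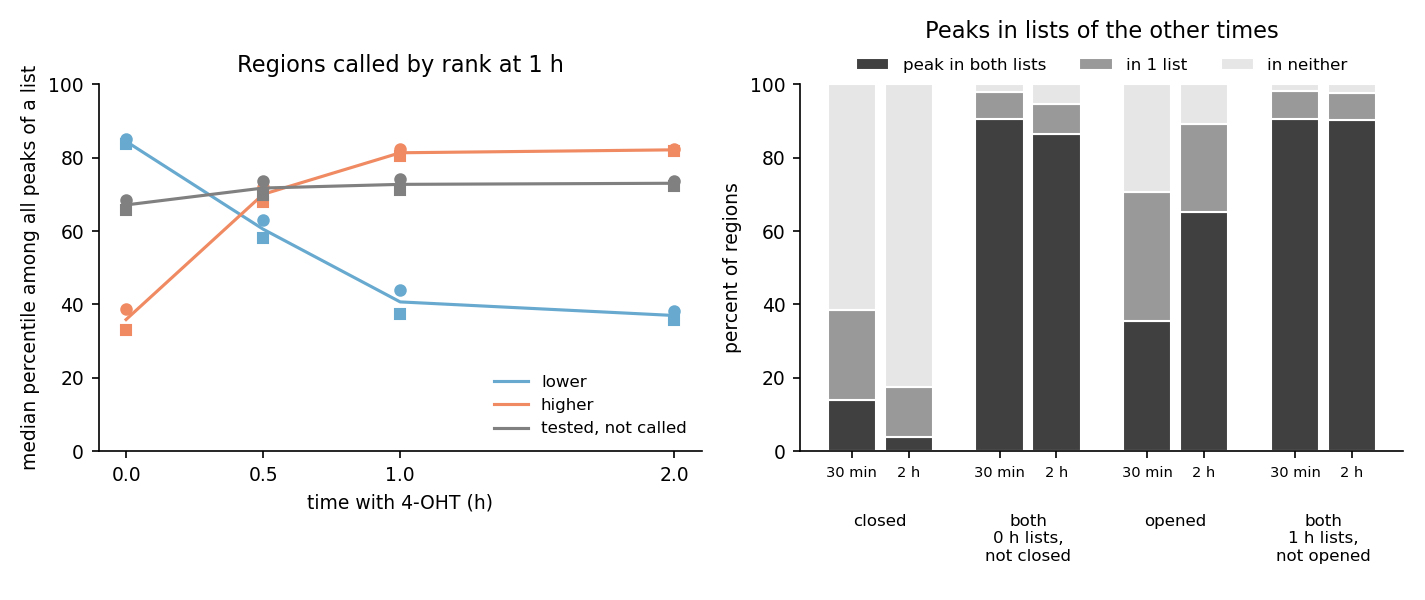
Left, median percentile among all peaks of a list of the lower, higher and uncalled regions (y axis) by time with 4-OHT in hours (x axis), circles for replicate 1, squares for replicate 2 and lines through their means. Only 0 h and 1 h were used to call them. Right, share of regions with a peak in both, 1 or neither of the lists of 30 min and 2 h. There 82.4% of closed regions had none at 2 h, against 5.36% of the other regions in both 0 h lists. A peak in both lists of 2 h was present in 65.2% of opened regions, against 90.2% of the other regions in both 1 h lists.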

How the data were processed

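ATAC-seq libraries were made from 50000 B3 cells each. The authors ran the nf-core ATAC-seq workflow with BWA 0.7.17, shifted fragment ends for Tn5 with deepTools 2.3.5, kept fragments of up to 120 bp and called peaks with MACS2 2.1.2 on each library alone. Methods text names a human genome. The labels name GRCm38, and 0 peaks end beyond a GRCm38 chromosome. In the deposited lists each peak has the fold of fragments at its summit over local background, a ratio, with its −log10 p-value and −log10 q-value and the summit position. These values are not scaled between libraries, and the lowest −log10 q was 1.3.

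Peaks of the 0 h and 1 h lists that overlapped were merged. Fragments at a summit were recovered from the deposited fold and −log10 p-value under the caller's Poisson model, and a whole number fitted 100.0% of peaks. The most frequent background stands for depth. With 11 to 14 fragments in the median peak, precision is limited. For ranks, the highest fold of a region in each list was turned into a normal score among the 53278 regions in all 4 lists and fitted with limma 3.58.1 (R 4.3.3, lmFit and eBayes, 2 against 2, no other term) with Benjamini-Hochberg adjustment over all 53278. The fit was checked on simulated data. GENCODE M21 gave start sites and introns. Words were counted in GRCm38.p6.

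Members, lists and tests were chosen with earlier results of these data known. Named were, in each class, the 8 regions with the highest percentile in the weaker of their 2 lists (closed, opened) or the largest shift of mean percentile (lower, higher), 1 per nearest gene, then the 5 genes nearest to most changed regions per direction and listed genes with a changed region within 20 kb. Alternatives were other rankings, scales, filters and thresholds, equal list lengths, summit windows, a stricter overlap, the replicate block and leaving out each library. Count tables were not used here. Of those named, 1 of the 8 closed regions and the values of some listed genes are not reported here.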

Additional observations from a re-analysis of the deposited data

How the results depend on the processing

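The counts of closed and opened regions stayed within 1.5 times under a −log10 q of at least 5, lists of equal length, 200 bp windows around the summits and a stricter overlap of peaks, from 7934 to 11442 closed and from 10314 to 13403 opened. Closed outnumbered opened regions in the lists of equal length, without 0 h replicate 2 and among peaks of over 20 fragments, and opened outnumbered closed under the others. Without a library fewer lists define closed and opened, so both counts rise and the 2 classes are not defined alike. With over 20 fragments at the summit in both libraries, a condition added after seeing the data, 632 and 328 were left, since the condition removes the weak peaks. Leaving out a library gave 12702 to 21655 closed, 16585 to 29923 opened, 1862 to 2734 lower and 550 to 2221 higher regions. Of rank calls, ranking among all peaks of a list gave 1478 lower and 1014 higher. The log2 of the deposited fold gave 3660 higher, the log2 of recovered fragments over background 4489 higher and, centred, 5839 lower and 4681 higher. An adjusted p under 0.01 in limma, the level at which the study called ATAC-seq changes from read counts, left 381 and 60, so that 86.4% of calls were lower. Of the 87 named lower or higher regions 19 kept their call at that level. Regions with a peak in at least 2 of the 4 lists gave 15259 and 10963 of 100779, at least 10 fragments on average 3526 higher of 45883, and a mean trend with a robust prior 4131 higher. The causes of these moves were not tested. Ranking by −log10 p and a fit on all 8 libraries moved neither count by over 1.5 times. With the replicate block, that is a paired fit, 3634 were lower and 2106 higher. The difference in rank scores between replicates 2 and 1 correlated at only 0.0228 between the times. Ranks remove any shift of a whole library, so this cannot tell whether samples of equal number were paired, and the labels do not say. Of 87 named lower or higher regions, 43 to 82 kept their call in 6 alternatives, the 2 other rankings and the leaving out of each library, where the lone library of a time is assumed to vary like the other pair. In each called region both libraries of one time lie on one side of the other time's, so leaving out a library cannot turn a direction. The surplus of core words in closed or lower regions, 1.8 words, was 1.19 in 100 bp, 0.315 for GGGAA and TTCCC only, as fewer letters or words are read, 1.91 in distal regions and 1.72 at the summit of the first library. Depth limits single peaks, with a median of 11 to 14 fragments.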
